A study of Homo sapiens with 11 samples.

Results

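The machinery that licenses and copies DNA was followed through 41 genes in total RNA of HCT116 cells, an established human colorectal cancer line. The genes were taken by symbol from the authors' table of 58699 genes, and all 41 were found. Before S phase, the origin recognition complex and the loading factors CDC6 and CDT1 place the MCM2-7 helicase on DNA, and geminin (GMNN) binds CDT1 to stop reloading once synthesis has begun. Loaded helicase becomes active when CDC45 and the GINS complex join it. Polymerases, primase, the sliding clamp PCNA, its RFC loader and single-strand binding protein then work at the fork, and many of the genes are known targets of E2F transcription factors in dividing cells.

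The control siRNA targeted luciferase (siLuc) and the other Staufen1 (siStau1), an RNA-binding protein that recognises double-stranded RNA. Each arm was given DMSO, the solvent, or decitabine (DAC), a cytidine analog that lowers DNA methylation, at 500 nM for 5 days. This made 4 groups of 2 libraries each, and all cells carried an siRNA. Where 4 levels are given without a group name, their order is siLuc with DMSO, siLuc with DAC, siStau1 with DMSO, siStau1 with DAC. The labels name 1 cell line and do not say whether the libraries of a group came from separate cultures. The authors gave 1 value per group in FPKM (fragments scaled to transcript length and to the number sequenced), so no spread between libraries can be shown and the depth is unknown. A gene is called here when its q-value in the authors' deposited table is under 0.05, and "rose" and "fell" are kept for called genes.

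The labels were checked first. STAU1, the targeted gene, had 35.5, 33.7, 30.0 and 27.1 FPKM. With the knockdown its log2 ratio was -0.24 under DMSO (q = 0.767) and -0.31 under DAC (q = 0.685 in the authors' deposited table), so it was little lower and not called. All 5 epithelial markers (EPCAM, CDH1, KRT8, KRT18, KRT19) were at 14.3 FPKM or more in every group. The summed level of 4 leukocyte markers was 0.0968, 2.23, 0.0983 and 2.62 FPKM. PTPRC, the leukocyte marker CD45, was listed at 0 in both DMSO groups. The 4 fibroblast markers summed to 1.77, 10.2, 0.980 and 6.38 FPKM, most of it from COL1A1, and the 3 endothelial markers to 0.139, 1.38, 0.0666 and 1.57 FPKM. COL1A2 and CDH5 were listed at 0 in both DMSO groups.

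All 41 replication genes were tested by the authors in each comparison, and all had at least 5 FPKM in every group. Their median level was 54.0, 26.2, 51.5 and 29.6 FPKM. The median of protein-coding genes at 1 FPKM or more was 12.4, 11.8, 12.7 and 11.8 FPKM. As a share of the FPKM of all nuclear protein-coding genes, the 41 genes made up 0.475%, 0.324%, 0.520% and 0.364%. The median replication gene was thus more abundant than the median expressed gene, and both the median and the share were lower in the 2 DAC groups. In RNA from whole cultures, fewer cells in S phase and less replication RNA per cell cannot be told apart.

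**Figure D1:**
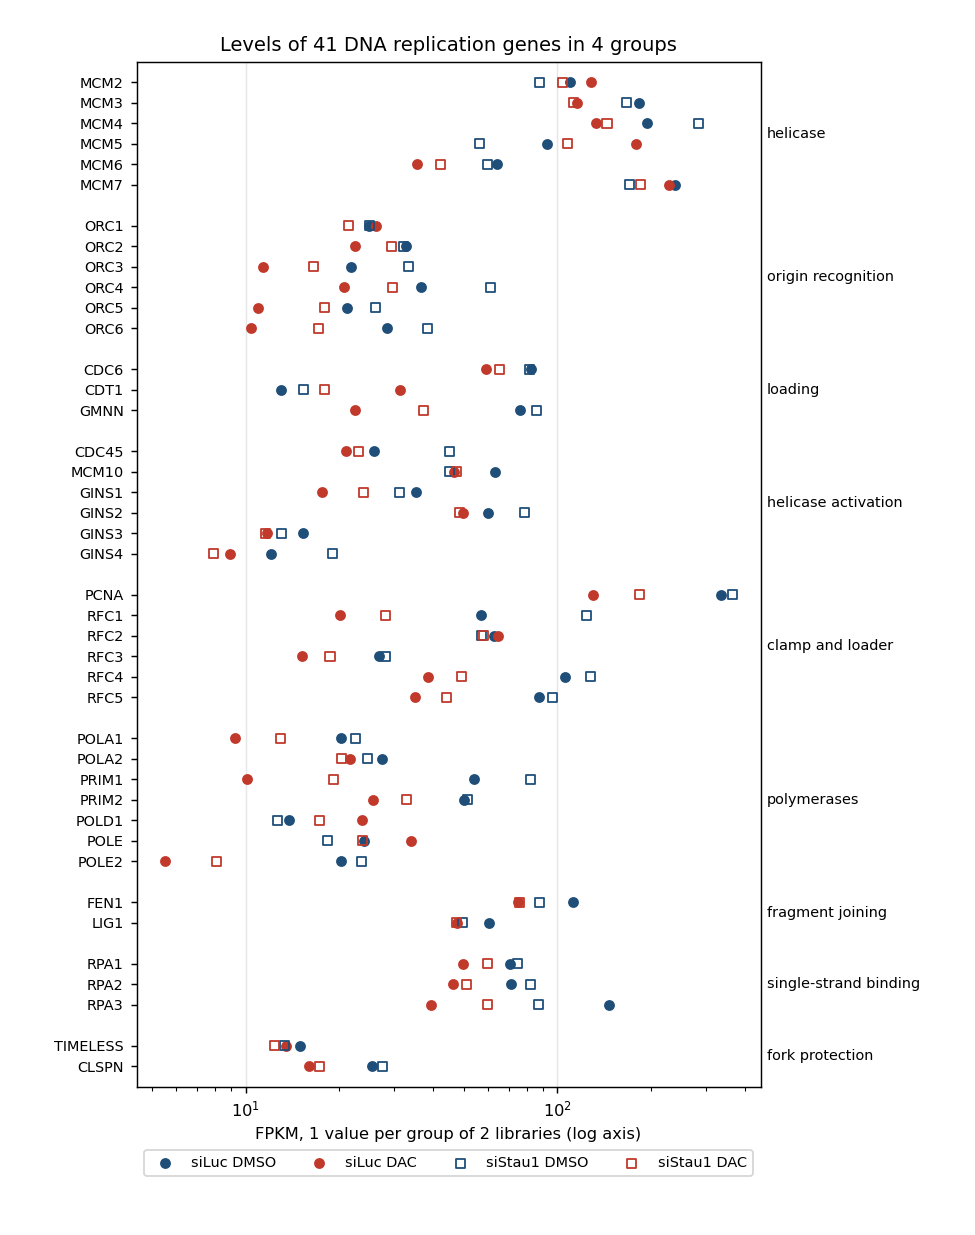
FPKM of each of the 41 replication genes (log axis) in the 4 groups, ordered by role; each point is the authors' value for 2 libraries, with no error bar because no value per library was given. PCNA is the most abundant in siLuc DMSO at 334 FPKM, and PRIM1, RPA3, GMNN and POLE2 show the widest gaps between siLuc DMSO and siLuc DAC.

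A log2 ratio is here that of FPKM + 0.1, DAC over DMSO or siStau1 over siLuc. Because ratios moved with the GC content of transcripts across all genes, each gene was also set against its like. The GC-centred ratio is the log2 ratio minus the median of protein-coding genes in the same of 20 bins of GC content, each with 547 to 580 genes at 1 FPKM or more in both groups.

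Promoters are shown for 5 of the 6 genes called with DAC in siLuc that hold the motif by which E2F factors are known to bind replication genes. The one not shown is GINS1, which fell and has its octamer 5 to 12 bases after the start. They run from 150 bases before the transcription start to 10 after it, 5′ to 3′ on the strand of the gene (RefSeq, GRCh38.p14), with each E2F octamer in capitals. The stretches are chr6:24775263-24775422 (+) for GMNN, chr20:5126613-5126772 (−) for PCNA, chr14:49688205-49688364 (−) for POLE2, chrX:24693768-24693927 (+) for POLA1 and chr16:88803639-88803798 (+) for CDT1.
GMNN: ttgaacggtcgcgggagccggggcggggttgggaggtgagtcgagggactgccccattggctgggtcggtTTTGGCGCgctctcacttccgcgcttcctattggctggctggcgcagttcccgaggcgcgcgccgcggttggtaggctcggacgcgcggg
PCNA: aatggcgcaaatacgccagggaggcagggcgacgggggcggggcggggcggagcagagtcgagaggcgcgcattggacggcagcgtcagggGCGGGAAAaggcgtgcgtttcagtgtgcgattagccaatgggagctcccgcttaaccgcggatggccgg
POLE2: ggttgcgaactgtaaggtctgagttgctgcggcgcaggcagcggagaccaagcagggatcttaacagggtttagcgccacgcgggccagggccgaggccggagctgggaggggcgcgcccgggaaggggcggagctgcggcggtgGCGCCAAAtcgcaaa
POLA1: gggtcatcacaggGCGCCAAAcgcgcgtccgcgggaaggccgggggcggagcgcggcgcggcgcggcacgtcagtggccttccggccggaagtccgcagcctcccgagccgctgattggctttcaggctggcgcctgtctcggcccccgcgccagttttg
CDT1: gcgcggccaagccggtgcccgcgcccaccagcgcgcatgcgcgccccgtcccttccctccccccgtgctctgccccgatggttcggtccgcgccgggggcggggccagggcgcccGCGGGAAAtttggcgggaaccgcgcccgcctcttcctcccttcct

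GMNN holds the octamer in the sense direction and the other 4 hold it in reverse, as GCGGGAAA in PCNA and CDT1 and as GCGCCAAA in POLE2 and POLA1. GMNN, PCNA, POLE2 and POLA1 were lower with DAC and CDT1 was higher, so these promoters share the motif but not the direction. Promoters of 36 of the 41 genes were in the RefSeq table, as windows of 250 bases before to 50 after the start. An octamer TTTCCCGC, TTTGGCGC, TTTGCCGC or TTTCGCGC on either strand was present in at least 1 window of 19 of the 36 (52.8%), against 855 of 15843 protein-coding genes (5.40%). In MCM2 and MCM6, matches on opposite strands overlapped each other. The CCAAT box (CCAAT, either strand) was in 22 of 36 (61.1%) against 42.1% of genes, and the CHR element (TTTGAA, either strand), named for cell cycle genes, in 0 of 36 against 15.8%. CpG dinucleotides, the sites of DNA methylation, numbered 28 in the median promoter window (range 5 to 48) against 21.5 over all genes. A match is only a run of letters and was not tied to binding here.

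The effect of DAC in control cells was asked by comparing siLuc DAC with siLuc DMSO. By the authors' deposited table, 9 replication genes fell and 1 rose, 24.4% of the 41, where 13.5% of all 17504 tested genes were called. Of all tested genes 4.78% were called lower and 8.71% higher, against 22.0% of the replication genes called lower. Among protein-coding genes at 1 FPKM or more in both groups, 14.6% were called and 6.85% were called lower. The genes that fell were GMNN, PCNA, POLE2, RPA3, ORC6, POLA1, RFC5, GINS1 and PRIM2, and the one that rose was CDT1. An unadjusted p-value under 0.05 was listed in the authors' deposited table for 16 of the 41. The same held for 3585 of 10953 protein-coding genes at 1 FPKM or more in both groups. The log2 ratio was below 0 for 34 genes and above 0 for 7, with a median of -0.58, while the median of expressed protein-coding genes was 0.08 and 46.9% of them were below 0.

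The same question in Staufen1 siRNA cells compares siStau1 DAC with siStau1 DMSO, groups not used in the first comparison. In the authors' deposited table RFC1, POLE2 and PCNA fell and no replication gene rose. These 3 are 7.32% of the 41, a share near the 7.46% called of all 16979 tested genes, while 2.89% of all tested genes were called lower and 4.56% higher. Among protein-coding genes at 1 FPKM or more in both groups, 6.84% were called and 3.76% were called lower. The authors' deposited table lists an unadjusted p-value under 0.05 for 11 of the 41. Among expressed protein-coding genes it does so for 2154 of 10954. The log2 ratio was below 0 for 33 genes and above 0 for 8, with a median of -0.54 against 0.03 for expressed protein-coding genes, of which 48.7% were below 0. PCNA and POLE2 were called in both arms, 2 of the 10 called in siLuc and 2 of the 3 called in siStau1. The same overlap over all tested genes is not given here, so this count cannot be read as few or many. The ratio was below 0 in both arms for 32 genes, above 0 in both for 6 (MCM2, MCM5, RFC2, POLD1, POLE, CDT1) and of opposite sign for 3 (MCM7, ORC1, MCM10). The like counts over all genes are not given here either.

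**Figure D2:**
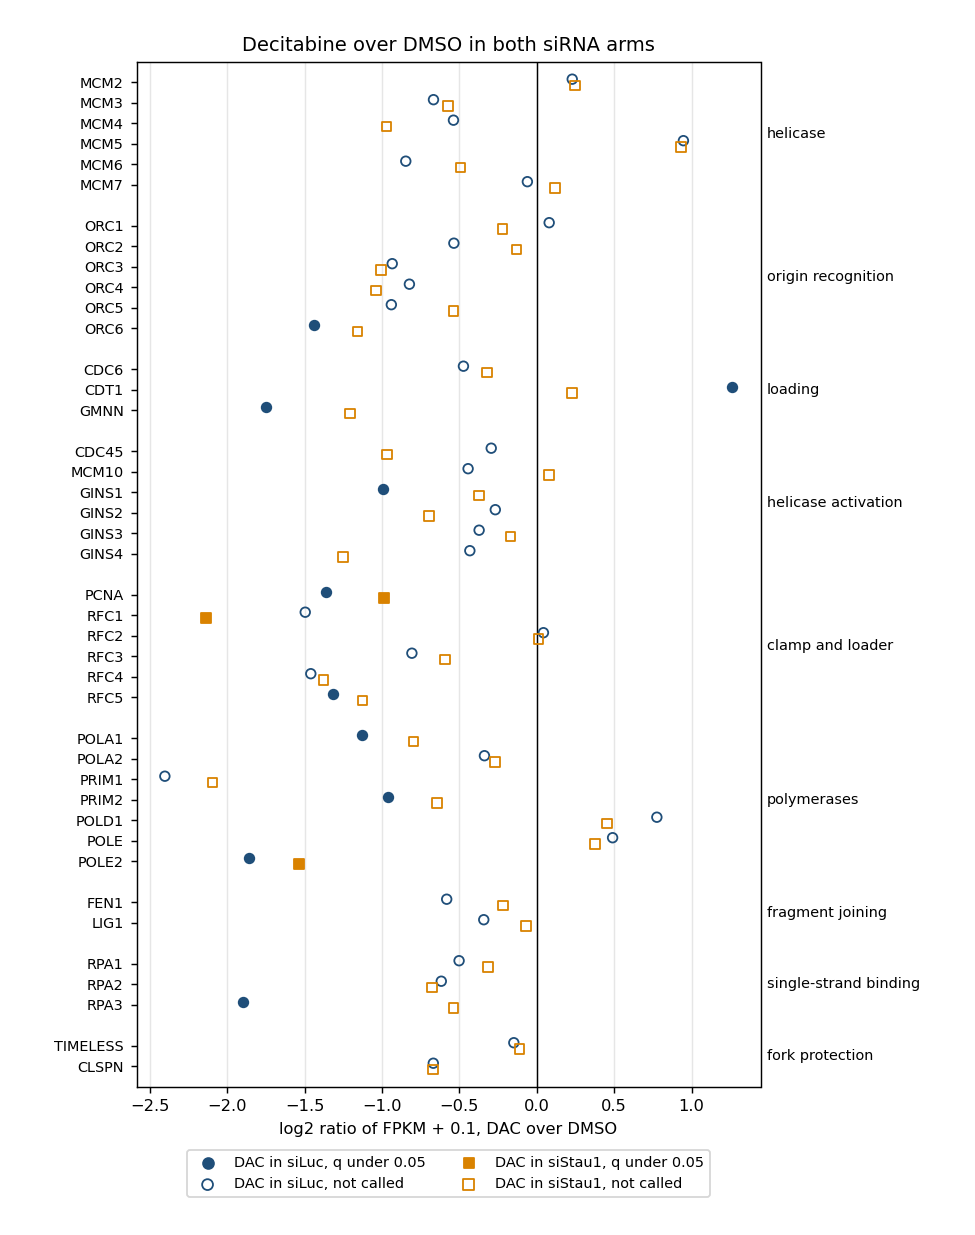
Log2 ratio of FPKM + 0.1, DAC over DMSO, of each gene in siLuc (circles) and siStau1 (squares), by role; filled symbols were called in the authors' table and there are no error bars, since each ratio rests on 1 value per group. Most points lie left of 0, with PRIM1 farthest left in siLuc at -2.40 but not called, and CDT1 farthest right at 1.26.

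Licensing begins with the origin recognition complex, whose 6 subunits summed to 165, 102, 216 and 132 FPKM. Gene positions are those of GENCODE 29 on GRCh38. ORC6, its smallest subunit (ENSG00000091651.8, chr16:46689643-46698394), had 28.4, 10.4, 38.3 and 17.1 FPKM. It was the one subunit called, falling to 36.6% of the DMSO level in siLuc, and it stood at 44.6% in siStau1 (q = 0.0194 and 0.143 in the authors' deposited table). ORC3 had 21.8, 11.3, 33.3 and 16.5 FPKM, ORC4 36.6, 20.7, 61.0 and 29.6, and ORC5 21.2, 11.0, 26.0 and 17.9. ORC1, an ATP-binding subunit whose level is known to follow the cell cycle, stayed between 21.5 and 26.2 FPKM, and ORC2 had 32.6, 22.5, 32.1 and 29.3. Thus ORC2 to ORC6 were lower with DAC in both arms, with only ORC6 in siLuc passing the test. The log2 ratio of ORC2 was -0.54 in siLuc and -0.13 in siStau1. The GC-centred ratio was -1.46 for ORC6 in siLuc and -1.10 in siStau1, and -0.08 and -0.42 for ORC4, whose transcript is 37.7% GC, the lowest of the 41 genes. In siLuc the value for ORC6 was -0.998 with the GC content of all exonic bases and -0.75 in bins of GC content by length.

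Among the loading factors CDT1 rose and its inhibitor GMNN fell with DAC in siLuc. CDC6, the ATPase that recruits the helicase with CDT1, had 82.1, 59.1, 81.6 and 65.3 FPKM and was not called. CDT1 (ENSG00000167513.8, chr16:88803213-88809258) had 13.0, 31.2, 15.3 and 17.9 FPKM, so that siLuc DAC stands above the other 3 groups. It rose to 241% of the DMSO level in siLuc (q = 0.0149 in the authors' deposited table), and its log2 ratio in siStau1 was 0.23 with a q-value of 0.856 there. GMNN, the inhibitor of CDT1 (ENSG00000112312.9, chr6:24774931-24786099), had 75.8, 22.4, 85.7 and 37.1 FPKM, low in both DAC groups. It fell to 29.6% of the DMSO level in siLuc (q-value 0.00162 in the authors' deposited table, the lowest the table holds) and stood at 43.3% in siStau1, with a q-value of 0.0784 there. The CDT1 over GMNN ratio of FPKM, chosen after its values were seen, was 0.171, 1.39, 0.179 and 0.484 in the 4 groups. It was 8.14-fold higher with DAC in siLuc and 2.71-fold higher in siStau1. Whether these folds differ beyond the spread of libraries could not be tested.

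CDT1 and GMNN also lie far apart in base composition, with transcripts of 64.9% and 43.6% GC. The first 150 bases of their coding sequences (GENCODE 29) are shown with G and C in capitals, 40.0% of the stretch for GMNN and 80.0% for CDT1.
GMNN: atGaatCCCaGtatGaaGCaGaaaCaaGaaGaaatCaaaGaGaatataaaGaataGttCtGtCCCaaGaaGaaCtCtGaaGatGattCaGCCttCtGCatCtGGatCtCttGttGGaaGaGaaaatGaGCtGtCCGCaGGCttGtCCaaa
CDT1: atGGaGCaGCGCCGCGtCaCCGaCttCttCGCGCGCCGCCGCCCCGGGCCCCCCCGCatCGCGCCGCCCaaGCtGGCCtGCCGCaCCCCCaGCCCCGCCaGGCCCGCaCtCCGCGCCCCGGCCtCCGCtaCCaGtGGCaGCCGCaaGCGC

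Beside genes of like GC content, CDT1 in siLuc was close to the median: its GC-centred ratio was 0.06, at percentile 54.4 of its bin. GMNN, the shortest transcript of the set, had a GC-centred ratio of -1.32, at percentile 5.11 of its bin, and -0.80 in bins of GC content by length. In siStau1 the centred ratios were -0.63 for CDT1 and -0.89 for GMNN. The centred ratio of CDT1 was thus lower than its plain ratio in both arms and below 0 in siStau1, while GMNN was below 0 on both scales in both arms.

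The MCM2-7 helicase had the highest summed level of the 9 roles in every group, and no subunit was called with DAC in either arm. Unadjusted p-values in the authors' deposited table were under 0.05 for 2 of the 6 subunits in siLuc and 1 in siStau1. Among expressed protein-coding genes such values numbered 3585 of 10953 in siLuc and 2154 of 10954 in siStau1. The sum over the 6 subunits was 881, 819, 824 and 696 FPKM, and the subunits differed in direction. MCM5 had 92.6, 179, 56.3 and 108 FPKM, with log2 ratios for DAC of 0.95 in siLuc and 0.93 in siStau1 and q-values of 0.110 and 0.125 in the authors' deposited table. MCM6 had 64.1, 35.6, 59.6 and 42.3 FPKM, with log2 ratios of -0.85 and -0.49 and a q-value of 0.0582 in siLuc in the authors' deposited table. MCM5 was thus higher and MCM6 lower with DAC in both arms. MCM3 had 183, 115, 167 and 112 FPKM, and MCM4 194, 133, 283 and 144. MCM2 had 109.8, 129, 87.6 and 104 FPKM, and MCM7 238, 228, 171 and 185. MCM3 and MCM4 were lower in both DAC groups, while the log2 ratios for DAC of MCM2 (0.23 and 0.25) and MCM7 (-0.06 and 0.12) were nearer to 0. Beside genes of like GC content 5 of the 6 subunits were below 0 in each arm. MCM2 came to -0.56 in siLuc and -0.38 in siStau1, and MCM7 to -0.82 and -0.44. Only MCM5 was above 0, at 0.19 and 0.37. The ratio of the summed MCM2-7 to the summed ORC1-6 level was 5.33, 8.03, 3.82 and 5.27.

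Helicase activation adds CDC45 and the 4 GINS subunits to the loaded helicase, with MCM10 as a further firing factor. GINS1 (ENSG00000101003.9, chr20:25407727-25452628) had 35.2, 17.6, 31.1 and 24.0 FPKM. It fell to 50.1% of the DMSO level in siLuc (q = 0.0302 in the authors' deposited table), and was at 77.1% in siStau1 with a q-value of 0.591 there. GINS1 was the only gene of this role called in either arm. CDC45 had 25.8, 21.0, 45.2 and 23.0 FPKM, GINS2 60.0, 49.8, 78.7 and 48.5, and GINS4 12.1, 8.94, 19.0 and 7.90. These 3 were highest in siStau1 DMSO, and their log2 ratios for DAC were lower in siStau1 (-0.97, -0.70 and -1.25) than in siLuc (-0.29, -0.27 and -0.43). GINS3 had 15.2, 11.7, 13.1 and 11.6 FPKM, with GC-centred ratios of 0.06 and 0.14 for DAC and -0.35 and -0.18 for the knockdown. MCM10 had 63.3, 46.5, 44.9 and 47.5 FPKM, so that siLuc DMSO stands above the other 3 groups.

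The clamp and its loader had the lowest median log2 ratio of the 9 roles in both arms, -1.34 in siLuc and -1.06 in siStau1. Their GC-centred medians were -0.95 and -0.75. In siLuc that of the 2 fragment-joining genes was lower, at -1.06. PCNA, the ring that holds polymerases on DNA (ENSG00000132646.10, chr20:5114953-5126626), had 334, 129.7, 363 and 183 FPKM. It fell to 38.9% of the DMSO level in siLuc and 50.5% in siStau1 (q = 0.00162 and 0.0228 in the authors' deposited table). RFC1, the large loader subunit (ENSG00000035928.15, chr4:39287456-39366375), had 57.1, 20.1, 124 and 28.1 FPKM. It fell to 22.7% in siStau1 (q = 0.00162 in the authors' deposited table), and stood at 35.3% in siLuc with a q-value of 0.0634 there. RFC1 was low in both DAC groups, and siStau1 DMSO was the highest of the 4 groups. RFC5 (ENSG00000111445.13, chr12:118013588-118033130) had 87.2, 35.0, 96.8 and 44.2 FPKM and fell to 40.1% in siLuc (q = 0.0266 in the authors' deposited table). Its q-value in siStau1 was 0.0876 in the authors' deposited table. RFC4 had 106, 38.4, 128 and 49.1 FPKM with log2 ratios of -1.46 and -1.38, yet it was not called (q = 0.535 and 0.416 in the authors' deposited table). RFC4 overlaps EIF4A2 on the opposite strand (259, 421, 219 and 311 FPKM), and how the counting treated strand is not given in the sources used here. RFC3 had 26.7, 15.2, 28.2 and 18.7 FPKM, while RFC2 stayed between 57.3 and 64.4, so one loader subunit of 5 showed no lower value with DAC.

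Among polymerases and primase, the catalytic subunits of the leading and lagging strand enzymes, POLE and POLD1, had ratios above 0 with DAC in both arms and the other 5 genes ratios below 0. POLE2, an accessory subunit of polymerase epsilon (ENSG00000100479.12, chr14:49643555-49688422), had 20.3, 5.51, 23.6 and 8.08 FPKM. It fell to 27.2% of the DMSO level in siLuc and 34.2% in siStau1 (q = 0.00293 and 0.0134 in the authors' deposited table). POLE, the catalytic subunit of the same enzyme, had 24.1, 33.8, 18.3 and 23.8 FPKM, with log2 ratios of 0.49 and 0.38 and no call. On the plain scale these subunits of 1 enzyme lay on opposite sides of 0 in both arms, with transcripts of 43.7% GC for POLE2 and 55.6% for POLE. POLD1, the catalytic subunit of polymerase delta, had 13.8, 23.7, 12.6 and 17.3 FPKM and was not called. Beside genes of like GC content all 7 genes of this role were below 0 in both arms. The GC-centred ratio of POLE was -0.06 in each arm, and that of POLD1 was -0.42 in siLuc and -0.41 in siStau1. PCNA, which serves polymerase delta, stood at 24.2, 5.48, 28.8 and 10.6 times the level of POLD1 per length, a ratio chosen after its values were seen.

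POLA1, the catalytic subunit of polymerase alpha (ENSG00000101868.10, chrX:24693919-24996986), had 20.3, 9.22, 22.6 and 13.0 FPKM. It fell to 45.5% in siLuc (q = 0.0241 in the authors' deposited table), and its q-value in siStau1 was 0.133 there. PRIM2, the large primase subunit (ENSG00000146143.17, chr6:57314805-57646849), had 50, 25.6, 51.5 and 32.9 FPKM. It fell to 51.2% in siLuc and stood at 63.8% in siStau1 (q = 0.0464 and 0.237 in the authors' deposited table). POLA1 and PRIM2 were low in the 2 DAC groups, lower in siLuc. POLA2, the accessory subunit, had 27.4, 21.7, 24.6 and 20.4 FPKM. PRIM1, the catalytic primase subunit, had 54.0, 10.1, 82.0 and 19.1 FPKM, the lowest log2 ratio of the 41 genes in siLuc (-2.40) and the lowest but RFC1 in siStau1 (-2.10). It was not called (q = 0.443 and 0.412 in the authors' deposited table). PRIM1 overlaps NACA, a far more abundant gene, on the same strand (914, 427, 841 and 673 FPKM), so its level is uncertain.

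Single-strand binding protein and the fragment-joining enzymes complete the fork. RPA3, the smallest subunit of replication protein A (ENSG00000106399.11, chr7:7636518-7718607), had 147, 39.3, 86.8 and 59.7 FPKM. It fell to 26.8% in siLuc (q = 0.0142 in the authors' deposited table), and stood at 68.8% in siStau1 with a q-value of 0.620 there. RPA1 had 70.6, 49.8, 74.3 and 59.6 FPKM and RPA2 71.1, 46.3, 81.7 and 51.0. In siLuc DMSO the RPA3 level was above that of both partners, and in siLuc DAC it was below both. FEN1, the flap nuclease, had 112, 74.8, 87.9 and 75.5 FPKM, and LIG1, the ligase that seals fragments, 60.4, 47.6, 49.8 and 47.4. FEN1 overlaps TMEM258 on the opposite strand (81.3, 110.4, 74.4 and 80.9 FPKM). Of the fork protection factors, CLSPN had 25.5, 16.0, 27.6 and 17.3 FPKM and TIMELESS stayed between 12.3 and 14.9. None of RPA1, RPA2, FEN1, LIG1, CLSPN and TIMELESS was called.

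Set against genes of like GC content, most replication genes lay below the median of their bin with DAC. The GC-centred ratio was below 0 for 37 of 41 genes in siLuc and 36 in siStau1, with medians of -0.46 and -0.44, and for 35 in both arms. By construction 25% of the genes of a bin lie below its lower quartile, and 18 replication genes did so in siLuc and 22 in siStau1. Above the upper quartile lay 0 in siLuc and 3 in siStau1 (MCM5, ORC2 and MCM10). The 16 genes below the lower quartile in both arms came from 7 of the 9 roles: MCM3, MCM4 and MCM7 of the helicase, ORC6, GMNN, PCNA with RFC1, RFC4 and RFC5, POLA2, PRIM1 and POLE2 of the polymerases, FEN1 and LIG1, and RPA2 and RPA3. The 25% holds for 1 arm at a time. Shares of all genes low in both arms are not given here, so the counts of 35 and 16 cannot be read as few or many. In siLuc the lowest in their bins were PRIM1 at percentile 1.28, RPA3 at 1.64 and POLE2 at 3.65, and the highest were MCM5 at 63.3, CDT1 at 54.4 and ORC2 at 54.0. In siStau1 the lowest were RFC1 at percentile 0.731, PRIM1 at 1.09 and RFC4 at 1.65, and the highest MCM10 at 77.6, ORC2 at 75.9 and MCM5 at 75.5.

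**Figure D3:**
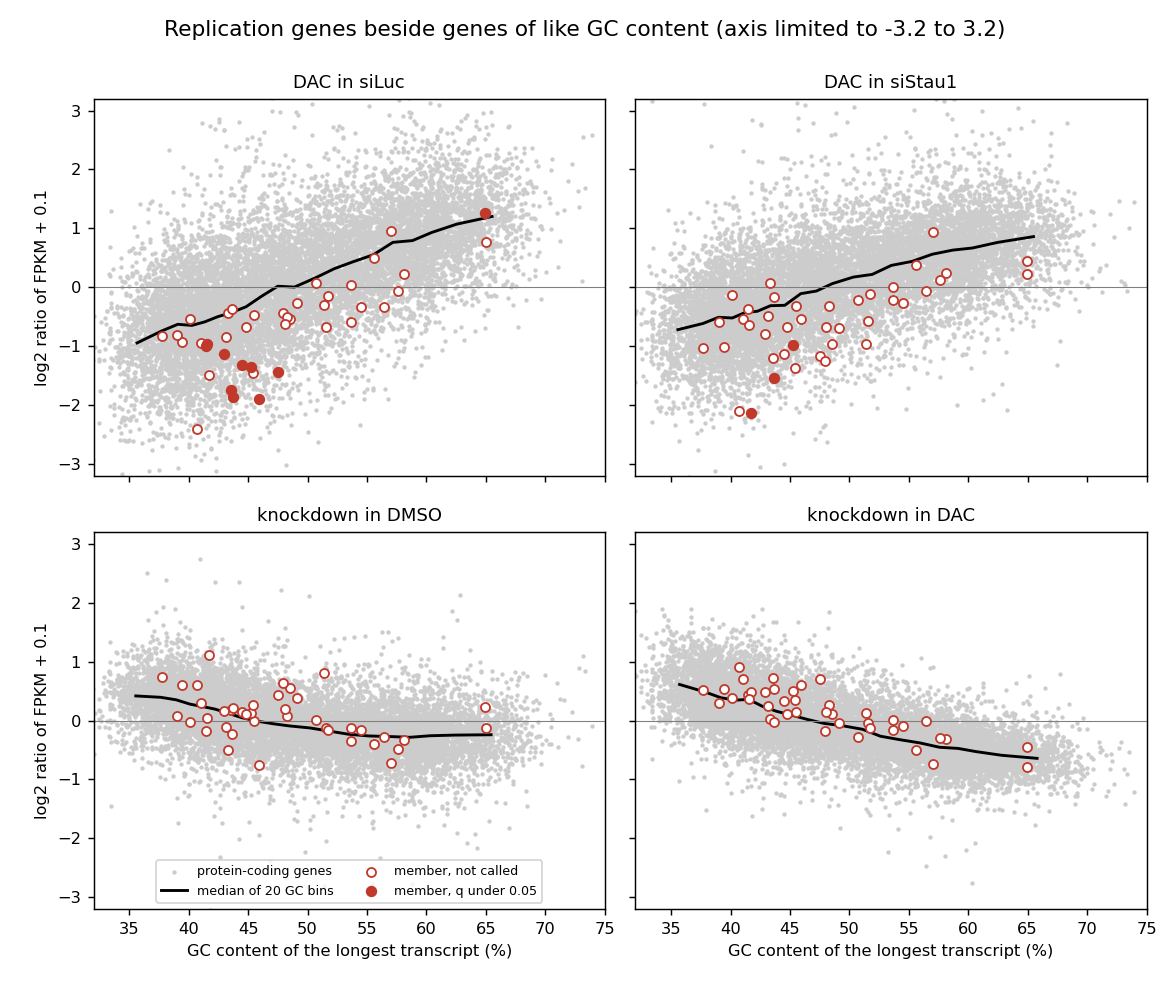
Log2 ratio of FPKM + 0.1 against GC content (%) of the longest transcript in the 4 comparisons; grey points are protein-coding genes at 1 FPKM or more in both groups, the black line their median in 20 GC bins, and red circles the replication genes (filled where called in the authors' table). The line climbs with GC content for DAC and descends for the knockdown, and most replication genes lie below it in both DAC panels.

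Centring moved genes of different composition in opposite ways. Across the 41 genes, which are not independent replicates and share their libraries, the rank correlation of the log2 ratio with GC content was 0.73 in siLuc and 0.58 in siStau1, against 0.66 and 0.62 across expressed protein-coding genes. The 14 genes of lowest GC content (37.7% to 43.6%) had a median ratio of -0.94 (log2) with siLuc and -0.36 after centring. The 13 of middle content (43.7% to 49.1%), which include PCNA, RFC4, RFC5, ORC6, POLE2 and RPA3, had -0.67 and -0.63, and all 13 were below 0 on both scales in both arms. The 14 of highest content (50.7% to 65.0%) had -0.01 and -0.46. Thus MCM7, LIG1 and FEN1, with log2 ratios of -0.06, -0.34 and -0.58 in siLuc, came to -0.82, -1.11 and -1.02 beside genes of like GC content. ORC4, ORC2 and RFC3, with -0.82, -0.54 and -0.81, came to -0.08, 0.11 and -0.18.

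Transcript length moved with the centred ratio as well. The 14 shortest transcripts (1262 to 2402 bases), among them GMNN, PCNA, PRIM1, RFC4 and RPA2, had a median GC-centred ratio of -1.02 in siLuc, the middle 13 -0.41 and the 14 longest (3873 to 8011 bases) -0.39. In siStau1 the medians were -0.71, -0.44 and -0.37. The rank correlation of the centred ratio with length was 0.48 over the 41 genes in siLuc and 0.39 in siStau1, against 0.27 and 0.18 over expressed protein-coding genes. The median transcript of the 41 genes had 3208 bases and 45.9% GC, against 3684 bases and 48.1% for expressed protein-coding genes. In bins of GC content by transcript length, an alternative chosen after seeing the data, the ratio was below 0 for 32 genes in siLuc and 33 in siStau1, with medians of -0.45 and -0.46. There PCNA came to -0.41 in siLuc, against -1.03 in bins of GC content alone, and PRIM2 to 0.10, against -0.38.

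**Figure D4:**
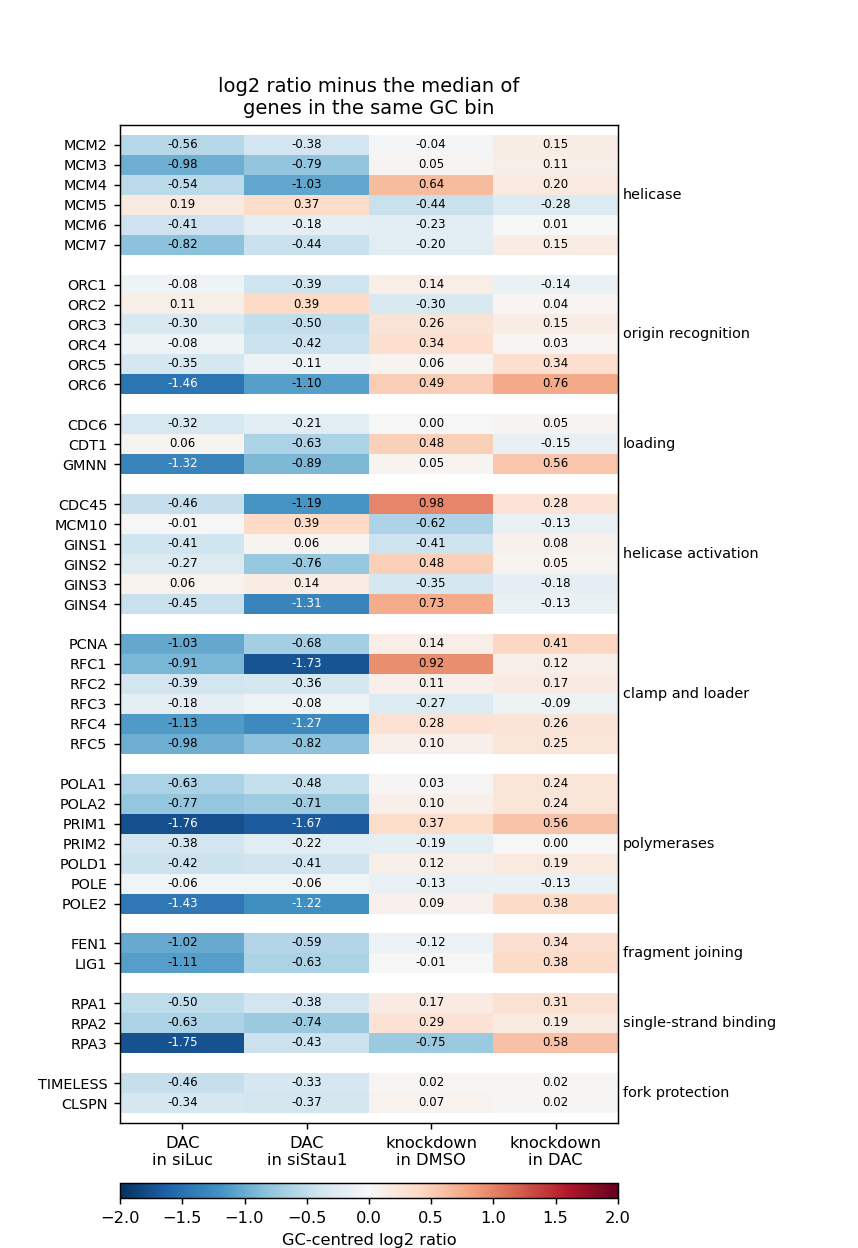
Heat map of the GC-centred log2 ratio (colour scale, with the value printed in each cell) of each replication gene in the 4 comparisons, by role; 0 is the median of protein-coding genes of like GC content, and no error can be given. Both DAC columns lie mostly below 0 (37 and 36 of 41 genes) and both knockdown columns mostly above 0 (27 and 33 of 41).

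Genes with and without an E2F octamer had medians close to each other. In siLuc the 19 genes with a match had a median GC-centred ratio of -0.41 and the 17 without one -0.46. Of these 6 and 3 genes were called, where 13.5% of all tested genes were called. In siStau1 the medians were -0.48 and -0.41, with 2 and 1 called, where 7.46% of all tested genes were called. These are descriptions of small groups, and no test of the difference was possible.

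Staufen1 knockdown was asked about by comparing siStau1 DMSO with siLuc DMSO and siStau1 DAC with siLuc DAC. STAU1 itself was not called in either, so a lower level of the targeted RNA is not shown by these values. No replication gene was called in either comparison by Cuffdiff in the authors' deposited table, where 0.799% of all tested genes were called with DMSO (0.333% higher, 0.466% lower) and 0.904% with DAC (0.434% higher, 0.469% lower). Unadjusted p-values in that table were under 0.05 for 0 of the 41 with DMSO and 2 with DAC, MCM5 and CDT1, both lower in siStau1. Among expressed protein-coding genes the counts were 378 of 10965 with DMSO and 945 of 11593 with DAC. With DMSO the log2 ratio was above 0 for 23 genes and below 0 for 18, with a median of 0.08 against -0.02 for expressed protein-coding genes. With DAC it was above 0 for 26 and below 0 for 15, with a median of 0.14 against -0.09. Scaling to the summed nuclear protein-coding FPKM moved the latter medians to 0.27 and 0.04. After GC centring 27 and 33 genes were above 0, with medians of 0.07 and 0.15, and 24 were above 0 in both. The share of all genes above 0 in both is not given here. Over the other forms of centring 22 to 29 genes were above 0 with DMSO and 27 to 31 with DAC.

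With DMSO, RFC1 had the highest ratio, 1.12, at percentile 98.4 of its GC bin, followed by CDC45 at 0.80 (percentile 97.4) and ORC4 at 0.74 (percentile 86.1). GINS4, at 0.64, was at percentile 96.5. The lowest were RPA3 at -0.76 (percentile 3.47), MCM5 at -0.72 (percentile 12.9) and MCM10 at -0.49 (percentile 5.66). With DAC the highest were PRIM1 at 0.91, GMNN at 0.72 and ORC6 at 0.71, the last at percentile 96.4 of its bin. CDT1 was lowest at -0.80, then MCM5 at -0.73 and POLE at -0.51. MCM5 was the one gene among the 3 lowest in both, at 56.3 against 92.6 FPKM with DMSO and 108 against 179 with DAC, and it was called in neither. RPA3 lay on opposite sides, lower in siStau1 with DMSO and higher with DAC (0.60).

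The ratio for DAC was less negative in siStau1 than in siLuc for 26 of the 41 genes and more negative for 15. The median difference, siStau1 minus siLuc, was 0.15, and over 10686 expressed protein-coding genes it was 0.01, with 50.7% above 0. By arithmetic a gene's difference is also its knockdown ratio with DAC minus that with DMSO. It rests on the same group values and is not a separate observation. Differences were largest for RPA3 (1.36), GINS1 (0.62) and GMNN (0.54) on one side, and for CDT1 (-1.03), GINS4 (-0.82) and CDC45 (-0.67) on the other. All 10 genes called in siLuc had a ratio of the same sign in siStau1, as did 38 of the 41 whether called or not. The share over all genes is not given here, so this count cannot be read as high or low. The difference between arms was not tested for any gene, because that needs values per library.

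Other genes of the pathway were called with DAC about as often as all genes, counting both directions. Their share called lower was above that of all tested genes, but it rests on 4 genes in siLuc and 2 in siStau1. Of 32 further replication genes, 4 fell and 1 rose in siLuc and 2 fell in siStau1 in the authors' deposited table, with median log2 ratios of -0.68 and -0.46 (GC-centred -0.35 and -0.28). The shares called, 15.6% and 6.25%, were near the 13.5% and 7.46% of all tested genes. Called lower were 12.5% in siLuc and 6.25% in siStau1, against 4.78% and 2.89% of all tested genes. Of protein-coding genes at 1 FPKM or more in both groups, 6.85% and 3.76% were called lower. The GC-centred ratio was below 0 for 27 and 26 of the 32. ATAD5, which unloads PCNA, fell in both arms, from 4.85 to 0.991 FPKM in siLuc, and in siStau1 from 6.51 to 2.12. DBF4, the activating partner of the CDC7 kinase that fires origins, fell from 51.3 to 12.1 FPKM in siLuc. CDC7 itself fell from 16.3 to 7.70 FPKM in siStau1. MTBP, a firing factor, fell from 17.0 to 4.71 FPKM and SUPT16H, a subunit of the histone chaperone FACT, from 124 to 63.0 in siLuc. POLE4, a small subunit of polymerase epsilon, rose from 12.8 to 37.7 FPKM in siLuc. With the knockdown none of the 32 was called by Cuffdiff in the authors' deposited table, with an unadjusted p-value under 0.05 for 1 with DMSO and 4 with DAC. Among expressed protein-coding genes such p-values numbered 378 of 10965 with DMSO and 945 of 11593 with DAC.

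Regulators of the G1 to S transition were called in both directions. Of 25, the authors' deposited table called 4 higher and 1 lower in siLuc and 3 higher and 1 lower in siStau1, with median log2 ratios of -0.09 and -0.11. That is 20% and 16% called, against 13.5% and 7.46% of all tested genes, and 4% called lower in each arm against 4.78% and 2.89%. CDKN1A, the p21 inhibitor that also binds PCNA, rose from 51.1 to 192 FPKM in siLuc, and in siStau1 from 47.5 to 163. Cyclin D1 (CCND1) rose from 69.6 to 189 and from 63.2 to 168 FPKM, and its kinase CDK6 from 7.24 to 30.1 and from 7.69 to 20.9. CCND3 rose from 9.22 to 30.3 FPKM in siLuc. SKP2, which directs CDT1 and p27 to degradation, fell from 32.5 to 13.1 and from 31.4 to 13.6 FPKM. With the knockdown none was called by Cuffdiff in the authors' deposited table, with an unadjusted p-value under 0.05 for 1 with DMSO and 0 with DAC. Among expressed protein-coding genes such p-values numbered 378 of 10965 with DMSO and 945 of 11593 with DAC.

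Genes of mitosis were lower with DAC together with the replication genes. Of 25, the authors' deposited table called 11 lower and 1 higher in siLuc and 9 lower in siStau1, with median log2 ratios of -1.12 and -0.97 (GC-centred -0.63 and -0.59). That is 44.0% and 36.0% called lower, against 4.78% and 2.89% of all tested genes. CDK1, the mitotic kinase, fell from 95.4 to 32.9 FPKM in siLuc, and in siStau1 from 114 to 58.5. MAD2L1, a spindle checkpoint protein, fell from 102 to 21.6 and from 138 to 41.7 FPKM. CDC20, the activator of the anaphase-promoting complex, rose from 139 to 258 FPKM in siLuc, and MKI67, the proliferation marker Ki-67, chosen after its values were seen, had 31.0, 37.2, 37.4 and 38.9 FPKM. With the knockdown in DAC, HMMR rose from 4.43 to 16.8 FPKM and TTK from 7.46 to 21.4, both called in the authors' deposited table.

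RNA of the mitochondrial genome, read as a sign of RNA quality, moved with DAC in the same libraries. All 13 protein-coding mitochondrial genes were higher with DAC in both arms, 8 and 7 of them called in the authors' deposited table, with median log2 ratios of 1.80 and 1.08. Their sum was 4530, 12487, 5330 and 8500 FPKM. The epithelial marker EPCAM fell from 259 to 117 FPKM with DAC in siLuc, and KRT19 rose from 537 to 1419. The part of these shifts, of the other cell type markers and of the mitotic genes in the lower replication values was not tested.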

How the data were processed

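Total RNA of 8 libraries in 4 groups was used. Per the file headers, the authors deposited a Cuffdiff table with 1 FPKM value per group of 2 libraries and a p-value and q-value for each of 6 pairwise comparisons. The deposited q-value was recomputed as the Benjamini-Hochberg value over all 102180 tests (largest gap 5.3e-07). The submitters' processing notes name bcl2fastq 2.20, HISAT2 2.1.0, featureCounts, DESeq 1.36.0, Cuffdiff 2.2.1, Cuffnorm 2.2.1 and the build hg38, with no role for each. Per the labels' protocols, libraries were stranded and depleted of ribosomal RNA.

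A count test had been planned for counts per library. Because the table used here holds 1 value per group, calls came from the authors' q-value, at a limit of 0.05, and no test of this work was made. Log2 ratios used a pseudocount of 0.1 FPKM, which understates changes of low genes, and no filter on low values. All gene identifiers were found in GENCODE 29, from which positions (GRCh38), length and GC content of the longest transcript were taken. GC centring used 20 bins of protein-coding genes at 1 FPKM or more in both groups. Scripts (Python 3.11.15, pandas 2.3.3, numpy 2.4.6) were tested on simulated data. The members and gene lists were chosen with earlier results of these data known. Full values are given for called members and, in each comparison, for the 3 highest and 3 lowest by log2 and by GC-centred ratio. From the lists, called genes and at most 3 others are named. The 3 J2 libraries, whose tables list repeat elements with no gene or position, were not used.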

Additional observations from a re-analysis of the deposited data

How the results depend on the processing

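Each value rests on 1 FPKM per group, so neither the spread between libraries nor the depth can limit or support it here. At a q-value limit of 0.01, DAC called 3 replication genes in siLuc and 1 in siStau1, and at 0.1 it called 6 in siStau1. Adjustment within the siLuc comparison alone added MCM6 and RFC1 to the calls. Some alternatives were chosen after seeing the data. Of these, bins of GC content by FPKM gave a median GC-centred ratio of -0.36 with DAC in siLuc, and scaling to the summed nuclear protein-coding FPKM gave a median ratio of 0.27 for the knockdown in DAC. Bins of GC content by transcript length moved single genes most with DAC in siLuc, by up to 0.71, and 5 of the 41 changed sign. Over all forms of centring, 32 to 37 replication genes lay below 0 with DAC in siLuc and 33 to 36 in siStau1. For the knockdown, 22 to 29 genes lay above 0 with DMSO and 27 to 33 with DAC, and the fewest with DMSO came with the GC content of all exonic bases, at a median of 0.03. The knockdown counts of called genes stayed at 0 under every q-value setting tried. No paired analysis was possible because the table holds 1 value per group, and fits without single replicates were not run for that reason.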
